A study of Rattus norvegicus with 78 samples.

Results

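The neurotrophins, their receptors and 2 proteins that act with them were read in the brains of rats from a line used as a model of depression and from its control line. The 7 genes were Bdnf, Ntf3, Ntrk2, Ntrk3, Ngfr, Sort1 and Vgf, and every probeset that the array annotation pairs with one of these symbols alone was taken, which gave 13 of the 31042 probesets that are not controls. Ntrk2 was read by 5 probesets, Bdnf and Sort1 by 2 each, and Ntf3, Ntrk3, Ngfr and Vgf by 1 each.

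Neurotrophins are secreted growth factors made as longer precursors. The mature forms bind receptor tyrosine kinases of the Trk family, which act through adaptors and kinases on gene activity and on synapses, whereas the precursors bind Ngfr together with the sorting receptor sortilin. In the forebrain Bdnf is made mainly by excitatory neurons and is induced by their activity. Its receptor TrkB, the product of Ntrk2, occurs in a full-length form with a kinase, found mainly in neurons, and in truncated forms without one, which are abundant in astrocytes.

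The prefrontal/frontal cortex (P/FC) and the hippocampus (HIP) were taken from adult male rats of the Flinders Sensitive Line (FSL) and the Flinders Resistant Line (FRL), and their RNA was hybridised to 78 Affymetrix arrays, 39 for each region. Each region had 12 FRL and 9 FSL arrays in cohort 1 and 10 FRL and 8 FSL arrays in cohort 2, which was bred later and run with other reagents. All rats, of both lines, had been through a forced swim test before the tissue was taken from the right hemisphere, and P/FC was the whole frontal lobe, so it can hold more than cortex. The labels name no drug, the lines were bred from Sprague-Dawley rats by selection for high (FSL) or low (FRL) sensitivity to the anticholinesterase diisopropylfluorophosphate and not for depression or a known allele, and the 2 regions were processed separately. Values are linear intensities from which the authors had subtracted the background, changes are log2 differences of FSL minus FRL with their standard error, and "passed" means an adjusted p under 0.05 in the limma fit over all probesets kept in that region. The number of arrays limits the precision.

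Markers of each region were read beside the labels. The geometric mean level of the hippocampus list lay between 271 and 387 in HIP and between 107 and 156 in P/FC. That of the cortex list lay between 178 and 347 in P/FC and between 106 and 193 in HIP, ranges that overlap. The means are over the genes kept in a region. These were 6 in each region for the hippocampus list, and 7 in P/FC and 6 in HIP for the cortex list. The cortex levels are thus not over the same genes. Genes of the striatum, which borders the dissection, ran from 70.0 to 504 in P/FC and had a median change of 1.04 in cohort 1 and 0.09 in cohort 2. The 3'/5' ratio of Gapdh, a measure of RNA quality, was lower in FSL in P/FC by 0.10 on the log2 scale in each cohort (exact permutation test, two-sided, adjusted p = 0.0198 and 0.0582 over 8 tests), and that of Actb was lower in HIP by 0.12 and 0.08 (adjusted p = 0.00359 and 0.0170).

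The promoters of 4 of the 7 genes, Bdnf, Ntf3, Sort1 and Vgf, were found in the RefSeq table of the GRCr8 build, with 11 windows from 250 bases before to 50 bases after a start site. They were searched on both strands for the cAMP response element TGACGTCA, which the activity-dependent factor Creb1 binds, and for its shorter form TGACG, which lies within the full element. The window of Vgf (chr12:25276971-25277270, minus strand) and a window of Bdnf (chr3:116637608-116637907, plus strand) were the ones that held a match, and they are shown because Bdnf and Vgf are both known as genes induced by neuronal activity, with the matched letters in capitals.
Vgf: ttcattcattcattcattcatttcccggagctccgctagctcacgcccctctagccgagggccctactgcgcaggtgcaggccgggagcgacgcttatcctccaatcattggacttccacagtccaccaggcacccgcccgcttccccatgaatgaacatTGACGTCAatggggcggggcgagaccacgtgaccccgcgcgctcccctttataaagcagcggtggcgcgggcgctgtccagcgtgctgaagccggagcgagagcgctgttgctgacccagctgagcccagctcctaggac
Bdnf: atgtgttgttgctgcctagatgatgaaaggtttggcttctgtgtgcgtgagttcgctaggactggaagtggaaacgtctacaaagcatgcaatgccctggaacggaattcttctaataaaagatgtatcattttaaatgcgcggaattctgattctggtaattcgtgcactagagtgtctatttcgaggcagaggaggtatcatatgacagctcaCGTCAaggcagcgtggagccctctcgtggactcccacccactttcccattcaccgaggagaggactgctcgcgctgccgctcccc
The full element in Vgf ended 82 bases before the start site, and its palindrome gave the 2 matches of the shorter form in that window. The Bdnf window held the shorter form once, read on the other strand as CGTCA. Of all 33469 promoter windows in the table, 1.83% held the full element and 21.2% the shorter form. A match describes these letters and is not a measured binding site.

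Of the 13 probesets, 11 passed the filter on low intensity in HIP, 11 in P/FC and 10 in both (over 30 on 50% or more of the FRL and of the FSL arrays). Ngfr fell below it in both regions, Ntf3 in P/FC and Ntrk2 1370652_at in HIP. The levels of different probesets cannot be set against each other, so each was compared with itself between regions and groups. Levels in P/FC differed from HIP with an adjusted p under 0.05 for 7 of the 10 members tested, against 69.6% of all 20963 probesets, and 4 were higher and 3 lower in P/FC.

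**Figure D1:**
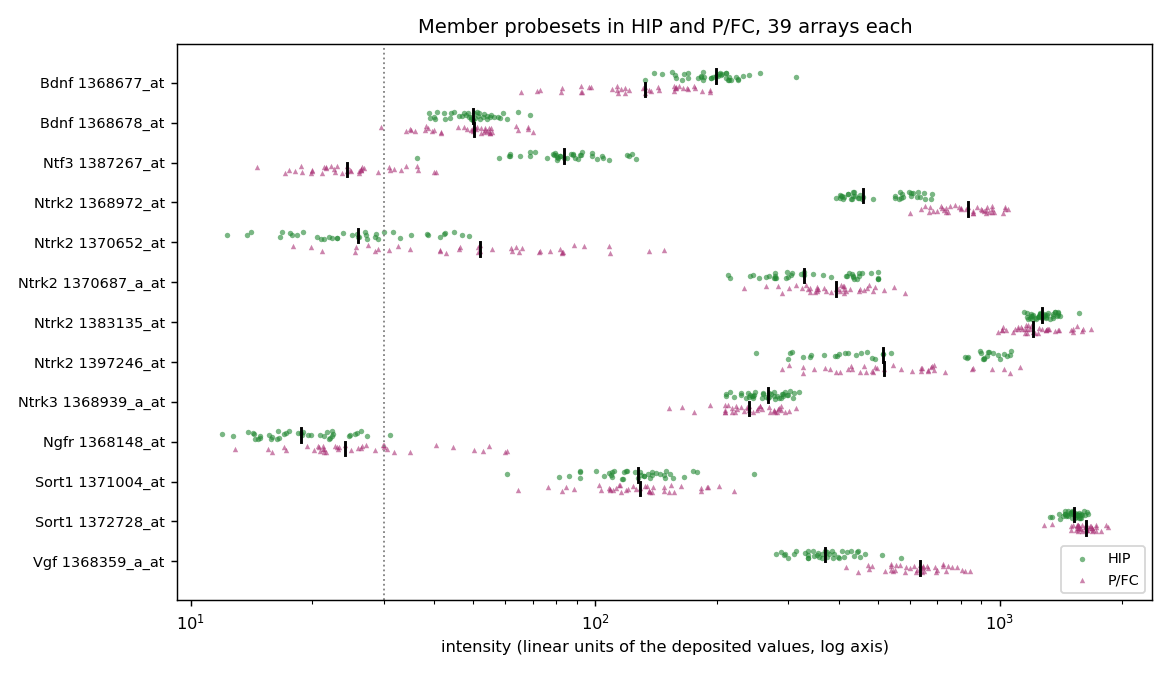
Intensity (linear units, log axis) of each member probeset on the 39 arrays of HIP (circles) and the 39 of P/FC (triangles), with the median as a black bar and the filter level of 30 as a dotted line. Vgf and Ntrk2 1368972_at lie higher in P/FC, Ntf3 and Bdnf 1368677_at higher in HIP, and Ngfr lies mostly under the filter level in both.

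Vgf, the precursor of secreted peptides that neurotrophins induce, was at 279, 370.4 and 570.4 (lowest, median and highest) in HIP and at 418, 634 and 844 in P/FC. Its level was 1.68-fold higher in P/FC (0.75 ± 0.0333 SE on the log2 scale, limma adjusted p = 7.15e-33). The Ntrk2 probeset 1368972_at ran from 394 over 458 to 679 in HIP and from 601 over 835 to 1047 in P/FC, a 1.63-fold higher level in P/FC (0.71 ± 0.0274, adjusted p = 1.50e-36). For Vgf and this probeset the regions did not overlap within either cohort, which held for 2 of 10 members and for 3.92% of all probesets. Region and processing cannot be told apart.

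Of the ligands, Bdnf read by 1368677_at was at 133, 199 and 313 in HIP and at 65.5, 132 and 192 in P/FC, 1.52-fold lower in P/FC (-0.60 ± 0.0669, adjusted p = 9.92e-13), with overlapping ranges. The other Bdnf probeset, 1368678_at, was at 38.9, 50.02 and 69.2 in HIP and at 29.6, 50.1 and 70.2 in P/FC and did not pass (-0.04 ± 0.0557, adjusted p = 0.523). The Bdnf probesets thus gave different region differences. Ntf3, the ligand of TrkC, was at 36.2, 83.8 and 126 in HIP and at 14.6, 24.4 and 40.5 in P/FC. It was above 30 on 39 of 39 HIP and 9 of 39 P/FC arrays, so the size of the difference without the filter (-1.75 ± 0.0764, adjusted p = 6.64e-33) rests on low intensities in P/FC. Its regions did not overlap within either cohort.

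For the other receptor probesets kept in both regions, P/FC minus HIP was 0.14 for Ntrk2 1370687_a_at (adjusted p = 0.00567), -0.14 for Ntrk2 1397246_at (adjusted p = 0.0258), -0.13 for Ntrk3, the gene of TrkC (adjusted p = 0.0115), and 0.09 for Sort1 1372728_at (adjusted p = 7.57e-05). Ntrk2 1383135_at (-0.05, adjusted p = 0.0999) and Sort1 1371004_at (0.04, adjusted p = 0.620) did not pass. The median over all probesets was 0.08, and with quantile normalization 1370687_a_at (0.04) and Sort1 1372728_at (0.01) no longer passed, whereas Ntrk2 1383135_at (-0.15, adjusted p = 6.75e-06) and Bdnf 1368678_at (-0.14, adjusted p = 0.0267) did. Without the filter the difference was 1.02 ± 0.0999 for Ntrk2 1370652_at (adjusted p = 1.11e-14), more than for Vgf or 1368972_at, and 0.51 ± 0.0956 for Ngfr (adjusted p = 3.55e-06). The sizes of both rest on low intensities, since in HIP 12 of 39 and 1 of 39 arrays were above 30.

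Levels also differed between the cohorts, most for probesets of Ntrk2. On 1397246_at HIP arrays ran from 249 to 537 in cohort 1 and from 818 to 1063 in cohort 2, a 2.33-fold higher level in cohort 2 in FRL and 2.46-fold in FSL. On 1368972_at HIP arrays ran from 394 to 486 and from 549 to 679, 1.40-fold and 1.42-fold higher. These were the 2 of 11 members in HIP whose cohorts did not overlap, against 0.869% of all probesets there; in P/FC there were 0 of 11, against 0.308%. Other probesets moved the other way: Sort1 1371004_at in HIP was at 0.696 of its cohort 1 level in FRL and at 0.786 in FSL, and Ntf3 in HIP was at 0.785 and 0.795. Cohort and reagents cannot be told apart, so the cohort levels were not tested and the lines were compared within cohorts.

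The line comparison asks which of these genes differ between the depression-prone and the resistant rats, and whether both cohorts show it. In HIP 0 of 11 member probesets passed, against 7.33% of the 21630 probesets tested, and at an unadjusted p under 0.05 in each cohort with the same sign there were also 0 of 11, against 4.85%. In P/FC 4 of 11 passed, against 18.6% of 22370, and 2 of 11 had an unadjusted p under 0.05 in each cohort with the same sign, against 9.87%. Vgf was higher in FSL and 3 probesets of Ntrk2 were lower. The median change over the members was -0.0174 in HIP and 0.00300 in P/FC, beside -0.00159 and 0.00193 over all probesets. In each member and cohort the ranges of FSL and FRL overlapped. How often they overlapped over all probesets was not counted.

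**Figure D2:**
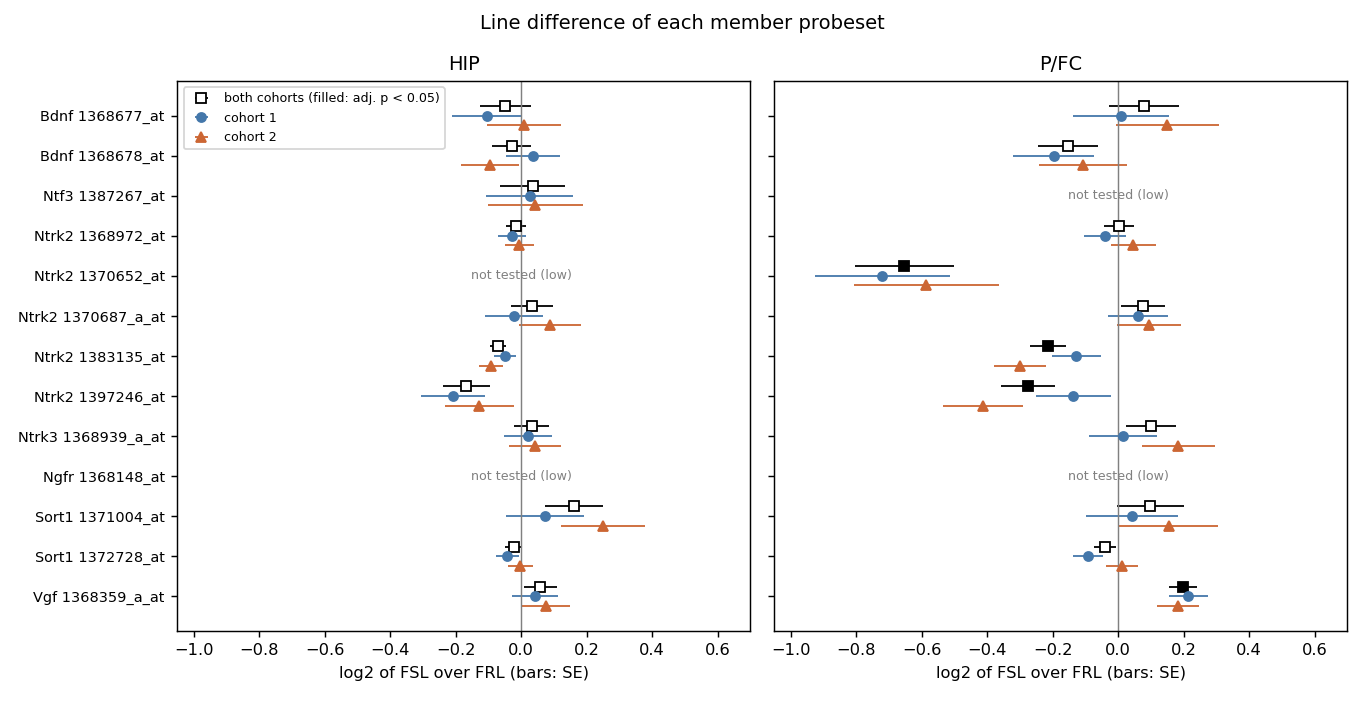
Log2 change (FSL minus FRL) of each member probeset in HIP and P/FC, over both cohorts (squares, filled where the adjusted p was under 0.05), in cohort 1 (circles) and in cohort 2 (triangles), with bars of 1 SE. Vgf lies to the right and Ntrk2 1370652_at, 1383135_at and 1397246_at to the left of 0 in P/FC, and no square is filled in HIP.

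Vgf rose in P/FC. In cohort 1 its intensity was at 418, 529 and 624 (lowest, median and highest) in FRL and at 544, 586 and 650.3 in FSL. In cohort 2 it was at 600.1, 662 and 746 in FRL and at 692, 773 and 844 in FSL. Each of the 9 FSL arrays of cohort 1 and the 8 of cohort 2 lay above the FRL median of its cohort, although the ranges overlapped. The change was 0.20 ± 0.0434 (1.15-fold, limma adjusted p = 0.00143), with 0.21 in cohort 1 (limma p = 8.75e-04) and 0.18 in cohort 2 (p = 0.00691). In HIP Vgf was at 288, 368 and 511 in FRL and at 279, 370.4 and 570.4 in FSL (0.06 ± 0.0510, adjusted p = 0.563). The difference between the regions in the change of Vgf was 0.14 ± 0.0666 (p = 0.0403, adjusted p = 0.599).

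**Figure D3:**
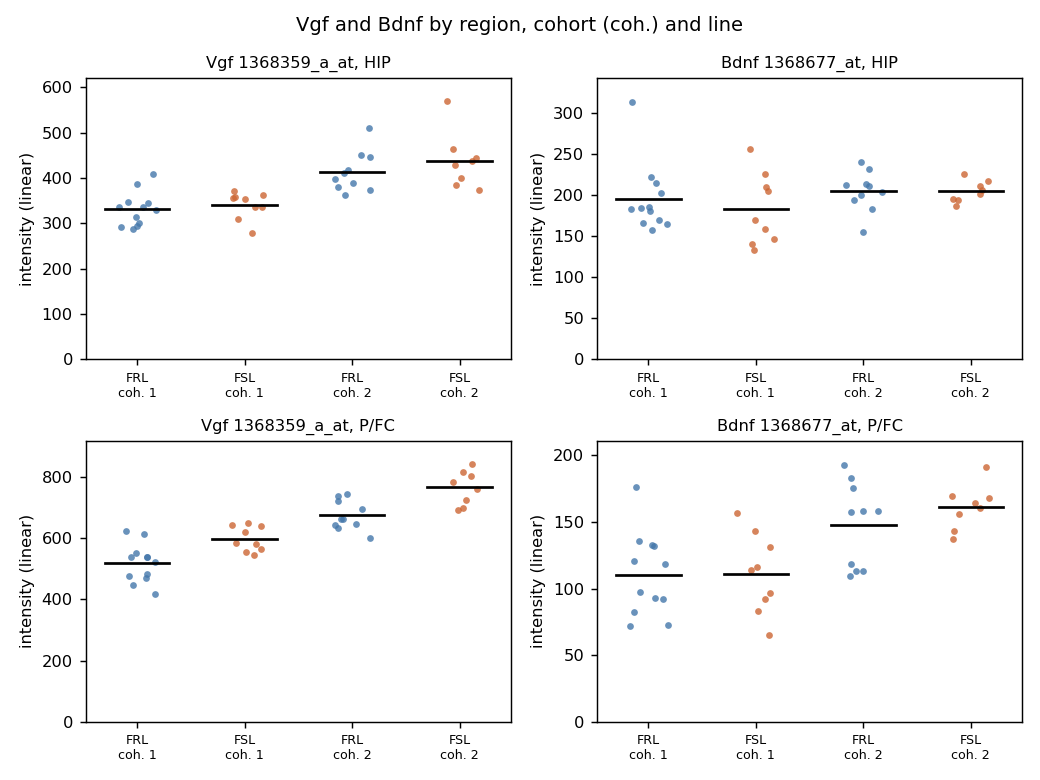
Intensity (linear) of Vgf and of Bdnf 1368677_at on each array by region, cohort and line, FRL in blue and FSL in orange, with the group mean as a bar. In P/FC the FSL arrays of Vgf sit from 544 to 650.3 in cohort 1 and from 692 to 844 in cohort 2, toward the top of or above the FRL arrays of their cohort, while the lines of Bdnf lie over each other.

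Bdnf did not pass in either region. On 1368677_at HIP arrays were at 154, 196 and 313 in FRL and at 133, 201 and 256 in FSL (-0.05 ± 0.0767, adjusted p = 0.783). In P/FC they were at 72.0, 119.7 and 192 in FRL and at 65.5, 143 and 192 in FSL (0.08 ± 0.107, adjusted p = 0.663). On 1368678_at the changes were -0.03 ± 0.0609 in HIP (adjusted p = 0.841) and -0.15 ± 0.0916 in P/FC (adjusted p = 0.256). The 2 probesets had opposite signs in P/FC, and their log2 ratio differed between the lines by 0.21 in cohort 1 and 0.26 in cohort 2, with 7 of 9 and 7 of 8 FSL arrays above the FRL median (exact permutation test, two-sided, p = 0.0816 and 0.0985, adjusted p = 0.271 for both). Ntf3 in HIP was at 36.2, 80.5 and 123 in FRL and at 57.8, 85.3 and 126 in FSL (0.03 ± 0.0982, adjusted p = 0.891). In P/FC, where it was above 30 on 6 of 22 FRL and 3 of 17 FSL arrays, its change without the filter was 0.05 (adjusted p = 0.851).

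The Ntrk2 probesets did not move together in P/FC. 1370652_at, 1383135_at and 1397246_at fell, and 1368972_at and 1370687_a_at did not pass. The annotation used here does not say which TrkB transcript a probeset reads, so no probeset is named for a receptor form.

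On 1370652_at P/FC arrays of cohort 1 were at 21.1, 51.7 and 66.1 in FRL and at 17.9, 29.1 and 41.3 in FSL. In cohort 2 they were at 51.2, 85.9 and 148 in FRL and at 27.5, 68.2 and 93.6 in FSL. Of the FSL arrays 0 of 9 and 1 of 8 lay above the FRL median. The change was -0.65 ± 0.151 (limma adjusted p = 0.00226), with -0.72 in cohort 1 (limma p = 0.00117) and -0.59 in cohort 2 (p = 0.0116). These are low intensities: 20 of 22 FRL and 11 of 17 FSL arrays of P/FC were above 30, and in cohort 1 10 of 12 FRL and 4 of 9 FSL arrays were, so the size of the change is uncertain. In HIP, where 12 of 39 were, the change without the filter was -0.35 ± 0.125 (adjusted p = 0.108). There 3 of 9 and 0 of 8 FSL arrays lay above the FRL median.

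On 1383135_at P/FC arrays of cohort 1 were at 1012, 1235 and 1592 in FRL and at 992, 1127 and 1315 in FSL. In cohort 2 they were at 1111, 1432 and 1683 in FRL and at 1010.1, 1159.8 and 1209 in FSL. The FSL arrays of cohort 2 formed a narrow band at the lower end of the FRL range, with 0 of 8 above its median, and 3 of 9 were above it in cohort 1. The change was -0.21 ± 0.0546 (limma adjusted p = 0.00512), with -0.13 in cohort 1 (limma p = 0.0935) and -0.30 in cohort 2 (p = 5.83e-04). In HIP it was -0.07 ± 0.0246 (adjusted p = 0.0719), with -0.05 in cohort 1 (limma p = 0.152) and -0.09 in cohort 2 (p = 0.0151). There 1 of 9 and 0 of 8 FSL arrays lay above the FRL median. The difference between the regions in the change was -0.14 (p = 0.0181, adjusted p = 0.518).

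On 1397246_at P/FC arrays of cohort 1 were at 289, 444 and 638 in FRL and at 301, 403 and 486 in FSL. In cohort 2 they were at 643, 855 and 1124 in FRL and at 543, 651 and 687 in FSL. Again 0 of 8 FSL arrays of cohort 2 were above the FRL median, against 3 of 9 in cohort 1. The change was -0.28 ± 0.0836 (limma adjusted p = 0.0178), with -0.14 in cohort 1 (limma p = 0.236) and -0.41 in cohort 2 (p = 0.00168). In HIP it was -0.17 ± 0.0719 (adjusted p = 0.156), with -0.21 in cohort 1 (limma p = 0.0395) and -0.13 in cohort 2 (p = 0.231). There 2 of 9 and 0 of 8 FSL arrays lay above the FRL median.

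The remaining Ntrk2 probesets lay over each other between the lines. On 1368972_at P/FC arrays were at 638, 828.8 and 1047 in FRL and at 601, 859 and 1027 in FSL (0.00 ± 0.0465, adjusted p = 0.977). On 1370687_a_at they were at 234, 369.8 and 547 in FRL and at 284, 398 and 582 in FSL (0.08 ± 0.0673, adjusted p = 0.468). In HIP the changes were -0.02 (adjusted p = 0.809) and 0.03 (adjusted p = 0.827).

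**Figure D4:**
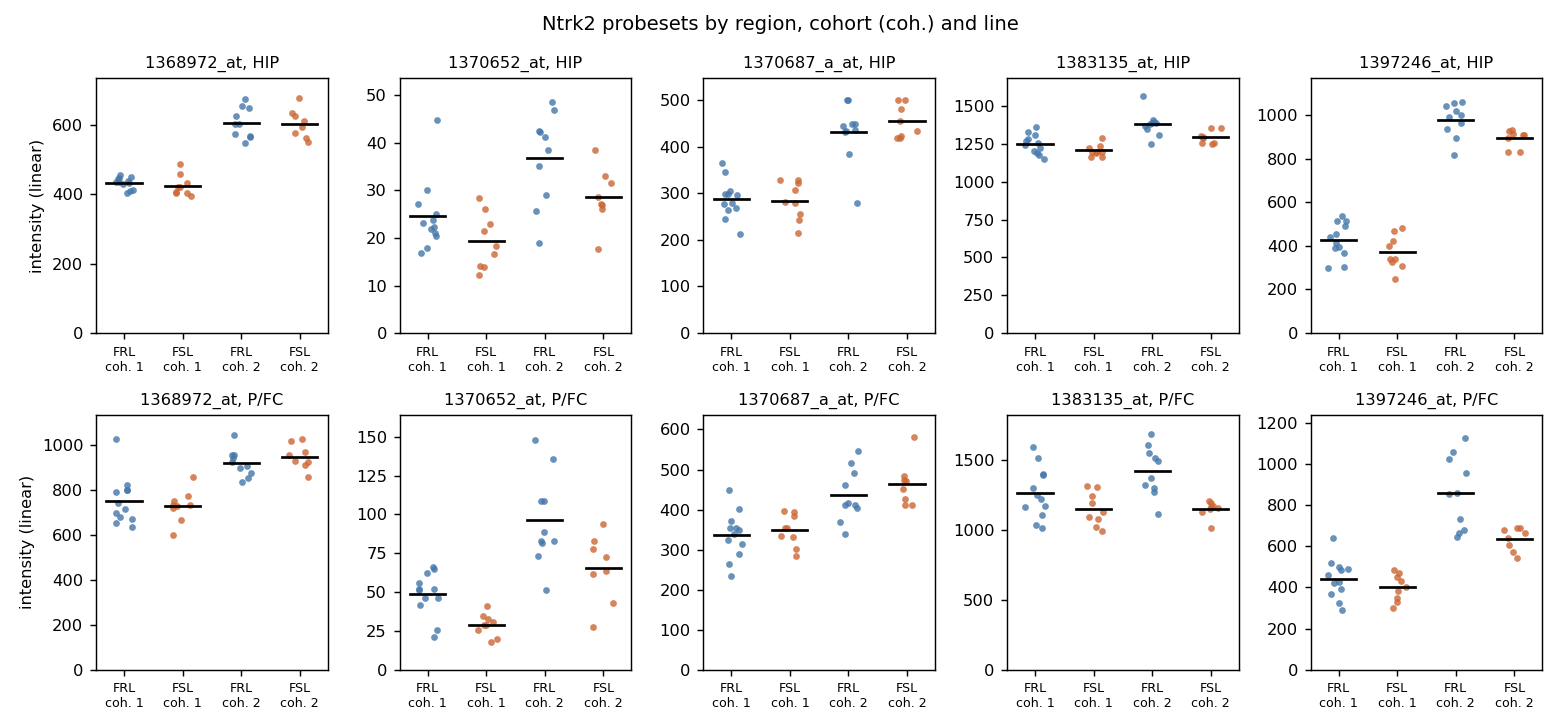
Intensity (linear) of the 5 Ntrk2 probesets on each array by region (rows), cohort and line, FRL in blue and FSL in orange, with the group mean as a bar. In the P/FC row the FSL arrays of 1370652_at lie low in both cohorts and those of 1383135_at and 1397246_at mainly in cohort 2. The lines of 1368972_at and 1370687_a_at overlap there. In the HIP row cohort 2 lies above cohort 1 without overlap on 1397246_at and 1368972_at.

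The log2 ratio of 2 probesets on the same array tests whether they changed unequally. In P/FC of cohort 2 the ratio of 1383135_at to 1368972_at was 0.62 ± 0.215 (SD, n = 10) in FRL and 0.27 ± 0.0748 (n = 8) in FSL, a difference of -0.35 with 0 of 8 FSL arrays above the FRL median (exact permutation test, two-sided, p = 0.00110, adjusted p = 0.0241 over 22 tests). The ratio of 1383135_at to 1370687_a_at differed by -0.39 (exact p = 0.00251, adjusted p = 0.0277). In cohort 1 these differences were -0.09 (exact p = 0.481) and -0.19 (exact p = 0.195). Against 1397246_at the ratio differed by 0.01 in cohort 1 and 0.11 in cohort 2 (exact p = 0.926 and 0.179), and against 1370652_at by 0.59 and 0.29 (exact p = 0.0118 and 0.241, adjusted p = 0.0868 and 0.443). Of the 22 such tests on Bdnf, Ntrk2 and Sort1, these 2 passed and 4 had an unadjusted p under 0.05.

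Some markers of astrocytes and of other cell types that are not neurons were also lower in FSL. In P/FC, where 18.6% of all probesets passed, 8 of 11 genes of the astrocyte list were lower in FSL (median -0.24), among them Slc1a3, a glutamate transporter (-0.28 ± 0.0562, adjusted p = 5.29e-04), Gfap, a filament protein (-0.27 ± 0.0667, adjusted p = 0.00459), and S100b, a calcium-binding protein (-0.22 ± 0.0411, adjusted p = 3.14e-04). The other 3 did not pass: Gjb6 (-0.24, adjusted p = 0.103), Slc1a2 (-0.10, adjusted p = 0.541) and Acsl3 (-0.01, adjusted p = 0.853). The geometric mean level of the list ran from 681 to 1061 in FRL and from 667 to 803 in FSL. The lowest mean intensity was that of Slc1a2, 98.2 in FRL and 90.8 in FSL. In HIP 6 of 11 were lower (median -0.11). Lower in P/FC were also 3 of 9 endothelial and mural genes (Vwf -0.60, Tek -0.28 and Cldn5 -0.28; list median -0.16), 2 of 9 microglia genes (Csf1r -0.29 and Ctss -0.28; list median -0.21) and 2 of 5 genes of oligodendrocyte precursors (Pdgfra -0.33 and Cspg4 -0.31; list median -0.20), and 0 of 8 oligodendrocyte genes passed (list median -0.01). The microglia count was near the 18.6% of all probesets. Of these lists, that of astrocytes was the one set against Ntrk2 across arrays, so a relation to the others was not tested. Neuron markers went the other way in P/FC, with 4 of 10 higher and 0 lower (median 0.14), and their geometric mean level ran from 1063 to 1384 in FRL and from 1185 to 1392 in FSL. In bulk tissue fewer cells of a type and less RNA per cell cannot be told apart.

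Deviations from the line and cohort means were then pooled over the 39 P/FC arrays. Those of 1383135_at followed those of the astrocyte mean (Pearson r = 0.83, Spearman rho = 0.80, adjusted p = 1.50e-04 and 7.50e-05 over 15 relations). Each permutation p was 1.00e-05, the smallest that 100000 permutations can give. The r was 0.82 without the 2 arrays farthest from the median, 0.87 in cohort 1 and 0.78 in cohort 2. For 1397246_at r was 0.73 and rho 0.75 (permutation p = 3.00e-05 and 1.00e-05, adjusted p = 2.25e-04 and 7.50e-05), 0.66 without those 2 arrays, 0.67 in cohort 1 and 0.82 in cohort 2. For 1370652_at, which fell most, r was 0.30 (0.12 without those 2 arrays) and rho 0.23 (permutation p = 0.0681 and 0.169, adjusted p = 0.146 and 0.317), for 1368972_at 0.05 and -0.18 (p = 0.793 and 0.324) and for 1370687_a_at 0.05 and 0.05 (p = 0.809 and 0.785). The differences between these correlations were not tested. The astrocyte mean varied more in FRL (SD 0.195 in cohort 1 and 0.179 in cohort 2) than in FSL (0.0801 and 0.0533). The correlations thus rest mostly on the FRL arrays, and r was not calculated for each line.

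**Figure D5:**
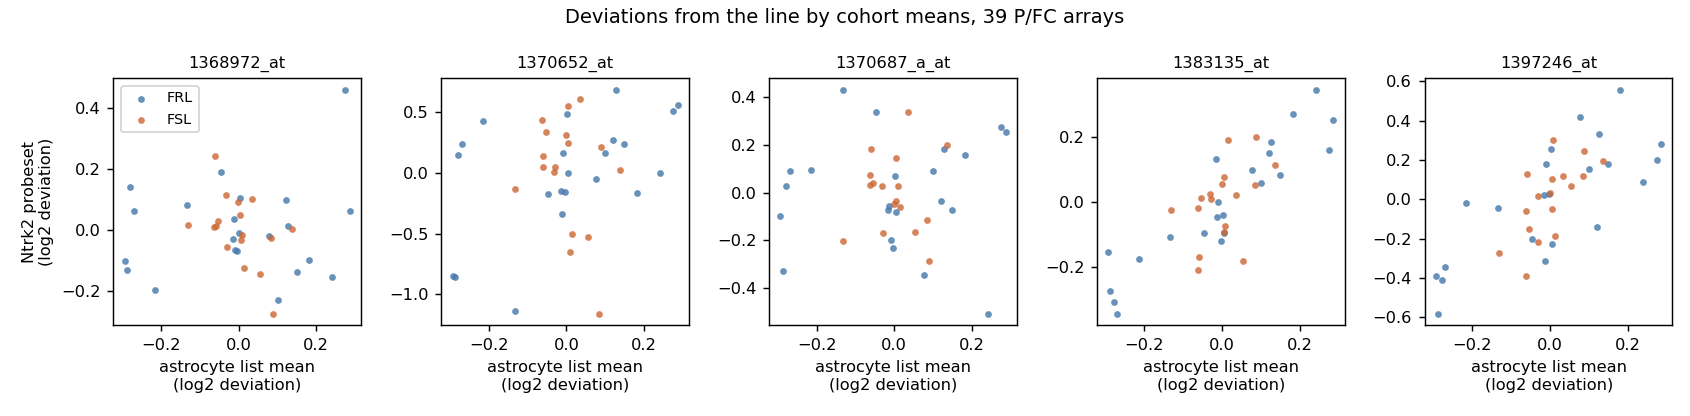
Deviation of each Ntrk2 probeset (y axis, log2) against that of the mean of the astrocyte list (x axis, log2) from the mean of its line and cohort, on the 39 P/FC arrays, FRL in blue and FSL in orange. The points of 1383135_at (r = 0.83) and 1397246_at (r = 0.73) rise from left to right over both lines, and those of the other 3 probesets scatter. The FSL points span a narrower range of the x axis than the FRL points.

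The relations to the astrocyte mean were not tested between the regions. In HIP r was lower than in P/FC for 1383135_at, 1397246_at and 1370687_a_at and higher for 1368972_at. There r was 0.44 for 1383135_at (rho 0.37, permutation p = 0.0175 and 0.0320, adjusted p = 0.0525 and 0.0900), with 0.28 without the 2 farthest arrays, 0.21 in cohort 1 and 0.66 in cohort 2. For 1368972_at it was 0.40 (rho 0.39, adjusted p = 0.0480 and 0.0507), which came to 0.27 without the 2 farthest arrays. Both values of r were thus lower without those arrays, and the lower values were not tested. For 1397246_at it was -0.02 (rho -0.03, adjusted p = 0.911 and 0.902), -0.29 in cohort 1 and 0.82 in cohort 2. For 1370687_a_at it was -0.15 (rho -0.13, adjusted p = 0.643 and 0.634).

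With the astrocyte mean as a covariate, chosen after seeing the data, 0 of the 4 calls in P/FC passed: the change of 1383135_at became -0.01, that of 1397246_at 0.01, that of 1370652_at -0.44 (adjusted p = 0.279) and that of Vgf 0.13 (adjusted p = 0.248). With that covariate 2.01% of all probesets passed and the standard errors rose 1.24-fold (median over probesets). The astrocyte mean itself differed between the lines, so this fit cannot tell a change of Ntrk2 from one of the list. With the mean of the neuron list as a covariate, also chosen after seeing the data, 5.04% of all probesets and 1 member, 1370652_at, passed, and the change of Vgf was 0.13 (adjusted p = 0.142). With the Gapdh ratio as a covariate Vgf and 1370652_at passed, and 1383135_at (-0.12, adjusted p = 0.273) and 1397246_at (-0.11, adjusted p = 0.553) did not.

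Ngfr, which binds all neurotrophins and their precursors, was low throughout. In HIP it was at 11.9, 17.1 and 27.2 in FRL and at 12.8, 19.5 and 31.2 in FSL, and 1 of 39 arrays was above 30. In P/FC it was at 12.9, 22.1 and 60.4 in FRL and at 20.1, 27.2 and 60.01 in FSL, with 5 of 22 and 7 of 17 above 30. Without the filter the change in P/FC was 0.46 ± 0.157 (adjusted p = 0.0486), with 0.61 in cohort 1 and 0.30 in cohort 2. In the striatum list, whose medians by cohort are given above, 2 of 9 genes passed, near the 18.6% of all probesets in P/FC. With the scores of striatum and meninges as covariates the change of Ngfr was 0.22 (adjusted p = 0.395). It did not pass with the Gapdh ratio (0.38, adjusted p = 0.350) or the Actb ratio (0.45, adjusted p = 0.0822) as a covariate either. The cause of the change was not tested.

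Sort1, the gene of sortilin, and Ntrk3 did not pass. Sort1 1372728_at in P/FC was at 1496, 1615 and 1851 in FRL and at 1286, 1628 and 1727 in FSL (-0.04 ± 0.0334, adjusted p = 0.435), and in HIP its change was -0.02 (adjusted p = 0.690). Sort1 1371004_at had changes of 0.10 ± 0.103 in P/FC (adjusted p = 0.556) and 0.16 ± 0.0872 in HIP (adjusted p = 0.291). The signs of the Sort1 probesets were thus opposite in each region, and their ratio in HIP of cohort 2 differed by -0.25 (exact permutation p = 0.0390, adjusted p = 0.215). Ntrk3 was at 152, 239 and 301 in FRL and at 209, 246 and 314 in FSL of P/FC (0.10 ± 0.0761, adjusted p = 0.395), and its change in HIP was 0.03 (adjusted p = 0.799).

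The study used 2 cohorts to see which differences recur. For 0 of 11 members in either region did the line change differ between cohorts at an adjusted p under 0.05 in limma, against 0.00% of all probesets in HIP and 0.00% in P/FC, and at an unadjusted p under 0.05 there were also 0 of 11 (936 of all probesets in HIP and 1036 in P/FC). The differences of 1383135_at (-0.17, p = 0.123) and 1397246_at (-0.28, p = 0.106) in P/FC were the nearest. The difference between the regions in the line change passed for 0 of 10 members, against 0.0668% of all probesets. At an unadjusted p under 0.05 there were 2 of 10, Ntrk2 1383135_at and Vgf, beside 1664 of all 20963 probesets. Passing in P/FC and not in HIP therefore does not show that the regions differed.

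Other genes of the pathway were read on the probeset with the highest mean of each gene. Of the ligands and the enzymes that process them, 1 of 8 in HIP and 2 of 7 in P/FC fell and 0 rose, counts near the 7.33% and 18.6% of all probesets that passed in these regions. They were Plat and Cpe, a carboxypeptidase of secretory granules. Plat is the tissue plasminogen activator, whose action yields plasmin, which cleaves the Bdnf precursor. Plat changed by -0.19 ± 0.0543 in HIP (adjusted p = 0.0245) and -0.35 ± 0.0942 in P/FC (adjusted p = 0.00775). Cpe changed by -0.14 ± 0.0313 in P/FC (adjusted p = 0.00197). Of 11 further receptors and coreceptors, 1 rose in HIP, Tnfrsf19 (0.21 ± 0.0581, adjusted p = 0.0213), and 3 rose and 1 fell in P/FC, beside the same shares of all probesets. Those were Sorcs3 (0.32 ± 0.0692, adjusted p = 0.00132) and Sorcs2 (-0.24 ± 0.0652, adjusted p = 0.00728), relatives of Sort1 that went opposite ways, and Bex3 (0.16, adjusted p = 0.00588) and Maged1 (0.10, adjusted p = 0.0277), whose products bind Ngfr.

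Of the adaptors and kinases below the Trk receptors, 1 of 26 rose in HIP, and 2 rose and 4 fell of 28 in P/FC, counts no higher than or near those shares. The adaptor Crk was higher in both regions (0.14 ± 0.0349 in HIP, adjusted p = 0.0105, and 0.17 ± 0.0344 in P/FC, adjusted p = 6.67e-04), and the kinase Map2k1 in P/FC (0.11, adjusted p = 0.0246). Crtc1, a coactivator of Creb1 (-0.26 ± 0.0512, adjusted p = 3.76e-04), Plcg1, a phospholipase that docks on TrkB (-0.17 ± 0.0449, adjusted p = 0.00710), Map2k2 (-0.12, adjusted p = 0.0200) and Rab7a, a GTPase of late endosomes (-0.07, adjusted p = 0.0148), were lower in P/FC. The median of this list was -0.02 in each region, beside -0.00159 and 0.00193 over all probesets.

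Activity-induced genes were set beside Bdnf and Vgf. In P/FC 9 of 15 fell and 0 rose (median -0.35), with Arc at -0.88 ± 0.188 (adjusted p = 0.00106), and in HIP 3 of 14 fell (median -0.18), with Arc at -0.52 ± 0.102 (adjusted p = 6.50e-04). Of all probesets 18.6% passed in P/FC (median 0.00193) and 7.33% in HIP (median -0.00159). Bdnf did not pass, with changes in P/FC of 0.08 on 1368677_at and -0.15 on 1368678_at. Vgf rose in P/FC, against the direction of this list. Within groups, Arc and Vgf were correlated in HIP (39 arrays, r = 0.52, rho = 0.55, permutation p = 7.80e-04 and 4.50e-04, adjusted p = 0.00390 and 0.00225), with r of 0.45 without the 2 arrays farthest from the median, 0.47 in cohort 1 and 0.60 in cohort 2. In P/FC r was 0.09 (rho 0.08, permutation p = 0.619 and 0.631, adjusted p = 0.774 and 0.789). For Arc and Bdnf r was -0.14 in HIP (rho -0.14, adjusted p = 0.643 and 0.634) and -0.13 in P/FC (rho -0.00, adjusted p = 0.663 and 0.979), where it was -0.39 in cohort 1 and 0.62 in cohort 2. Bdnf and Vgf gave r of -0.34 in HIP (rho -0.34, adjusted p = 0.0686 and 0.0900) and 0.27 in P/FC (rho 0.25, adjusted p = 0.242 and 0.309).

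The genes whose deviations were most like those of a member were ranked by the smaller r of the 2 regions, over 39 arrays each, as a description. For Ntrk2 1383135_at they were Rbm5 (0.77), the astrocyte marker S100b (0.73) and Epb41l2 (0.73). For Vgf they were Gap43, a growth cone protein (0.54), Sst, the precursor of somatostatin (0.46), and Tubb5 (0.44), and for Bdnf 1368677_at Tcea2, Brinp2 and Syn2 (0.61 each). For Ntrk3 they were C5h1orf216 (0.69), Srpk2 (0.68) and Kmt2e (0.67), and for Sort1 1372728_at Klc2 (0.64), Lingo1 (0.62) and Coq2 (0.59).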

How the data were processed

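Total RNA of HIP and P/FC was labelled and hybridised to Affymetrix rat genome arrays. The authors extracted and normalised the signals with Rosetta Resolver 5.1, and the deposited table gives, for each probeset on each array, an intensity on a linear scale after background subtraction. Region, line and cohort came from the labels. The labelling batch, a term of the authors' model, is not in the labels and could not be fitted, and arrays from the same animal cannot be matched across regions by their labels, so that arrays were taken as independent.

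A floor of 1 was put under the intensities before log2, and 57 control probesets were left out. A region kept the probesets over 30 on 50% or more of its FRL and of its FSL arrays. Each region was fitted with limma 3.58.1 (R 4.3.3) with 1 mean per group of line and cohort, and the contrasts were FSL minus FRL within each cohort, over both with equal weight, and the difference between cohorts. The regions were compared in a fit of all 78 arrays. P-values were adjusted (Benjamini and Hochberg) over all kept probesets. Ratios of probesets were tested by two-sided exact permutation tests, and correlations of deviations from the group means by 100000 permutations within groups (Python 3.11.15, numpy 2.4.6, scipy 1.17.1, pandas 2.3.3), with figures by matplotlib 3.10.9. Scripts were tested on simulated data.

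The members and gene lists were chosen with earlier results of these data known. Gene symbols came from the array annotation, in which 20826 probesets have 1 symbol, 436 several and 9780 none. The genes named beside the members were those of the pathway lists that passed, at most 6 a list by adjusted p, and the 3 most alike genes; markers were named where they moved with a result. Alternatives run were no filter, a filter of 100, a plain analysis of variance, quantile normalization, 16 added before the logarithm, the Gapdh and Actb ratios and tissue scores as covariates, the mean of a gene's probesets, a separate fit of each cohort and the replicate number as a block; astrocyte and neuron scores, and covariates without the filter, were added after seeing the data.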

Additional observations from a re-analysis of the deposited data

Results flagged for a closer look

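Of 78 groups of member values tested for a sample far from the others, 8 were picked out, and chance alone picks out about 1 in 20 groups. Groups of 12, the FRL arrays of cohort 1, were not tested, while the FSL groups of cohort 1 were. All 8 values picked out were of cohort 2. In HIP of FRL these were replicate 5 of Bdnf 1368678_at at 64.3 (next 51.9), replicate 4 of Ntf3 at 123 (next 80.4), and replicate 2 both of Ntrk2 1383135_at, the highest at 1567 (next 1406), and of Ntrk2 1370687_a_at, the lowest at 279 (next 383). In HIP of FSL it was replicate 2 of Vgf at 570.4 (next 464). In P/FC of FSL these were replicate 3 of Ngfr at 52.8 (next 30.04), replicate 1 of Ntrk2 1370687_a_at, the highest at 582 (next 485), and replicate 7 of Ntrk2 1383135_at, the lowest at 1010.1 (next 1131). No cause was tested.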

How the results depend on the processing

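In HIP the count of members that passed was 1 instead of 0 with a filter of 100 and 1 with a plain analysis of variance (Ntrk2 1383135_at, -0.07, adjusted p = 0.0356 and 0.0361). In P/FC it was 2 instead of 4 with the Gapdh ratio (Vgf and Ntrk2 1370652_at), and 2 genes with the mean of a gene's probesets (Vgf 0.20, Ntrk2 -0.21). It was 5 of 13 without a filter, with Ngfr added, 0 with the astrocyte score and 1 with the neuron score (Ntrk2 1370652_at), both added after seeing the data. Under the latter Vgf was at 0.13, Ntrk2 1383135_at at -0.05 and 1397246_at at -0.15. Ntrk2 1397246_at also lost its call with the Actb ratio (-0.21, adjusted p = 0.0645) and with tissue scores (-0.25, adjusted p = 0.0727). The count with p under 0.05 in each cohort of P/FC was 1 instead of 2 with a filter of 100, at which Ntrk2 1370652_at was not tested. Over all probesets the count in P/FC was 4166, and 853 with the Gapdh ratio, 2428 with tissue scores, 449 with the astrocyte and 1128 with the neuron score; in HIP it was 1586, and 442 with the Actb ratio.

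Signs turned for values that had not passed, and for 1 that had, Ntrk2 1397246_at in P/FC (0.00683 with the astrocyte score). In HIP these were Ntrk2 1370687_a_at (-0.0314 with the Gapdh and -0.13 with the Actb ratio), Ntf3 (-0.0297 with the Actb ratio, -0.0234 with the block), Ntrk2 1368972_at (0.0221) and Sort1 1371004_at (-0.0704), both with the Actb ratio. In P/FC these were, with the Gapdh ratio, Ntrk2 1368972_at (-0.0339), 1370687_a_at (-0.0167), Ntrk3 (-0.00273) and Sort1 1371004_at (-0.0872), and Ntrk2 1368972_at with the Actb ratio (-8.95e-04) and the block (-0.00724). Between regions these were Sort1 1371004_at in level with quantile normalization (-0.0474), and in the line change Ntrk2 1370687_a_at (-0.0221 with the Gapdh ratio), Sort1 1371004_at (0.0154 with the Actb ratio) and Sort1 1372728_at (0.0168 with tissue scores). The causes were not tested.

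With the replicate number as a block, 0 of 11 members passed in HIP and 4 of 11 in P/FC (2092 and 3901 of all probesets), and 0 and 3 had p under 0.05 in each cohort. Samples share only a number: the correlations of FSL with FRL deviations of the same number ran from -0.159 to 0.423, and those of HIP with P/FC from -0.280 to 0.365, and most samples did not correlate best with their own number. Of the alternatives, 79 kept a count within 1.5 times and 7 did not, and of the values of single members 369 kept direction and call, 12 lost the call, 4 gained it and 17 changed sign. The differences between probesets (2 of 22) kept their count under each alternative run. Intensities near 30 limit what Ngfr, Ntf3 in P/FC and Ntrk2 1370652_at can show.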
